A study of Homo sapiens with 4 samples.

Results

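The genes described here make, mature and assemble the small nuclear RNAs (snRNAs) of the spliceosome. They are 40 named genes of the 25283 in the deposited count table, all 40 with counts in every library. They were taken by symbol, with earlier results of these data known. They were ordered by role into SNAPc (5 genes), Integrator (13), export and cap (6), SMN/Gemin and methylosome (11), and a last group of Cajal body, trimming and chaperone proteins (5).

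RNA was sequenced from human cells that the labels call neurons, grown from H1, an established embryonic stem cell line, by way of neural progenitors and maturation medium. The groups were compared 36 hours after a lentiviral vector was given: wild type cells with an empty vector (control, n = 2 libraries) and cells with a vector for U1 snRNA overexpression (U1_OE, n = 2 libraries). The treatment text is the same for all samples and names the overexpression vector for the control samples as well, so the groups follow the genotype labels and titles. Separate cultures are not stated for the libraries of a group, and p-values therefore measure a spread that may be technical.

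U1 and the other spliceosomal snRNAs except U6 and U6atac are transcribed by RNA polymerase II from promoters bound by SNAPc, and the Integrator complex cleaves the nascent RNA near its 3′ end. The capped precursor is carried to the cytoplasm by the cap-binding complex, PHAX and the exportin XPO1. There the SMN complex with its Gemin proteins closes a ring of Sm proteins on the RNA, after the PRMT5 methylosome has modified the Sm proteins, and the particle returns to the nucleus with a trimethylated cap bound by snurportin. Final maturation takes place in Cajal bodies. All members act on U1, or on its relatives, which is why the sequence of U1 is shown. The letters are those of the GENCODE v29 transcript of RNU1-1 (GRCh38, chromosome 1, 16514122 to 16514285, minus strand, 164 bases). Capitals mark bases 3 to 11, ACTTACCTG, which pair with 5′ splice sites, and bases 126 to 132, which match ATTTNTG, a form of the site on which the Sm ring is closed.

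RNU1-1: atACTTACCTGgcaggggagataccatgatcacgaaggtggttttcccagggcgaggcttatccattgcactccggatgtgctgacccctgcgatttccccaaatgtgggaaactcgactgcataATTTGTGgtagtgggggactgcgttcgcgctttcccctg

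The transcripts of RNU1-2, RNU1-3 and RNU1-4 carry the same 164 bases. Searched on the transcript strand, ACTTACCTG occurs in 2.63% and ATTTNTG in 27.2% of 1900 annotated snRNA transcripts. The U1 sequence carried by the vector was not given in the sources used here. RNU1-1, RNU1-2, RNU1-3 and RNU1-4 have no row under these names in the count table. U1 under other names was not analysed here, so its level was not checked.

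The libraries held 16713505 to 19057423 estimated counts, of which the 40 genes took 0.129% to 0.144%. The cells showed few neuronal markers: of 13 measured pan-neuronal markers, 1 reached 10 CPM (counts divided by TMM-scaled library size) in every library, and DCX was at 0 in control replicate 1 and U1_OE replicate 1. Summed pan-neuronal levels were 129 to 195 CPM in control and 335 to 373 CPM with U1_OE, most of it TUBB3 (104 to 338 CPM). Marker by marker, both U1_OE libraries were above both controls for 3 of the 13 (TUBB3, GAP43 and NEFM) and below for 3 (NCAM1, SYP and RBFOX3). Of these, NEFM (0.28 to 0.49 CPM), SYP (0.26 to 1.18 CPM) and RBFOX3 (0.05 to 0.29 CPM) lay near 0 in all libraries. Summed endothelial markers were 28.1 and 34.7 CPM in control and 42.3 and 76.6 CPM with U1_OE, most of it PECAM1. Of the 4 markers 2 were above and 2 below. Those below, CDH5 (0.05 to 0.41 CPM) and KDR (0.31 to 0.94 CPM), lay near 0. All 14 mesenchymal markers reached 10 CPM in every library, with sums of 82870 to 93520 CPM in control and 92790 to 100400 CPM with U1_OE. Both U1_OE libraries were above both controls for 8 of these 14 and below for 0, beside 19.7% and 22% of all genes tested. Summed markers of cycling cells were 33.6 and 44.2 CPM in control and 18.2 and 39.5 CPM with U1_OE. The part of these differences in the values below was not tested, and in bulk RNA fewer cells of a type and less RNA per cell cannot be told apart.

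The comparison of U1_OE with control asks whether the genes that build snRNAs differ when U1 is supplied from a vector. None of the 40 passed the test. By edgeR's quasi-likelihood test with adjustment over 17317 genes, 0 of the 40 lay under an adjusted p of 0.05, beside 0% of all genes tested, and their adjusted p ranged from 0.561 to 0.997. At an unadjusted edgeR p under 0.05 there were 0 of 40, beside 9.08% of all genes tested. That count was 1 with limma-voom, 1 by edgeR with only rows averaging 50 counts or more, and 1 with replicate number as a block. The share of all genes in those fits is not given here. At an adjusted p under 0.05, DESeq2 and limma-voom called 0 of the 40 too, beside 0.972% and 0% of all genes. The log2 fold changes, U1_OE over control, ran from -0.53 for INTS2 to 0.50 for INTS13, with a median of 0.02 over the members and -0.01 over all genes tested. The sign was positive for 23 and negative for 17 members, and 57.5% positive compares with 49.3% over all genes. With unscaled library sizes in place of TMM, the median of all genes moved to -0.04 and that of the members to -0.01, with 19 of the 40 positive. Relative to all genes the members' median was 0.03 higher under either scaling, and 23 and 24 of the 40 lay above the median of all genes. With 1 library left out the members' median was 0.04 to 0.11. The value of 33 of the 40 moved by more than 1.5 times in at least one of those 4 fits, and 15 changed sign in one.

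The width of the intervals says how large a difference these libraries leave possible. The 95% interval lay within a 2-fold change in either direction for 35 of the 40 members, beside 49% of all genes tested, many of which have lower counts. The count was lower in each fit that left out 1 library, and so was the share of all genes. Intervals widen with fewer libraries in any case, so this fall does not show dependence on a particular library. With all 4 libraries the other 5 were SNAPC5, INTS2, INTS6, INTS13 and INTS14, whose intervals passed a 2-fold change on one side. Both U1_OE libraries lay above both control libraries for 9 members, beside 19.7% of all genes, and below for 4 members, beside 22%. In either direction groups were apart for 41.8% of all genes. The 9 were INTS4, INTS7, INTS13, GEMIN2, GEMIN4, DDX20, STRAP, PRMT5 and SSB, and the 4 were SNAPC5, INTS2, INTS14 and XPO1. For 30 of the 40 the log2 gap between the replicates of at least one group was larger than the fitted log2 fold change, beside 66.5% of all genes.

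**Figure D1:**
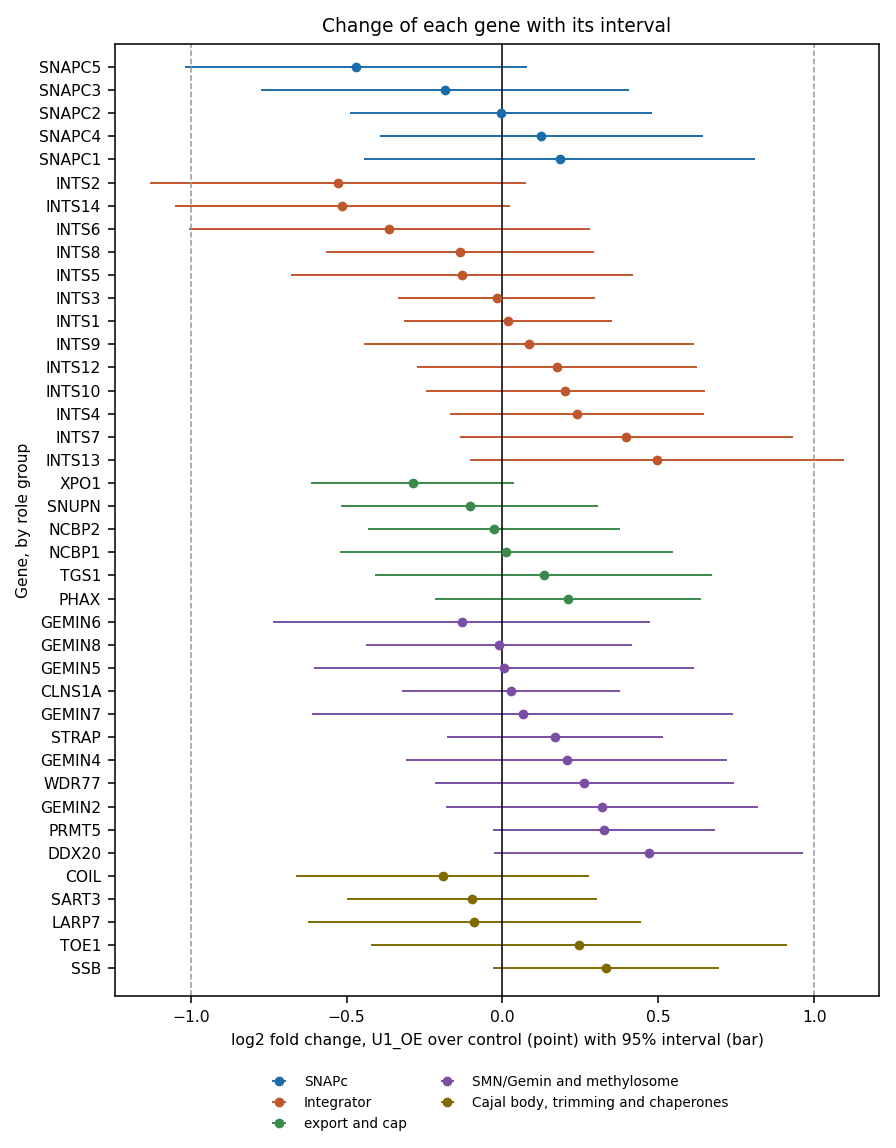
Log2 fold change of U1_OE over control for each of the 40 genes (points), with 95% intervals from edgeR's quasi-likelihood test (bars), coloured by role group; dashed lines mark a 2-fold change. Every interval contains 0, and those of SNAPC5, INTS2, INTS6, INTS13 and INTS14 cross a dashed line.

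**Figure D2:**
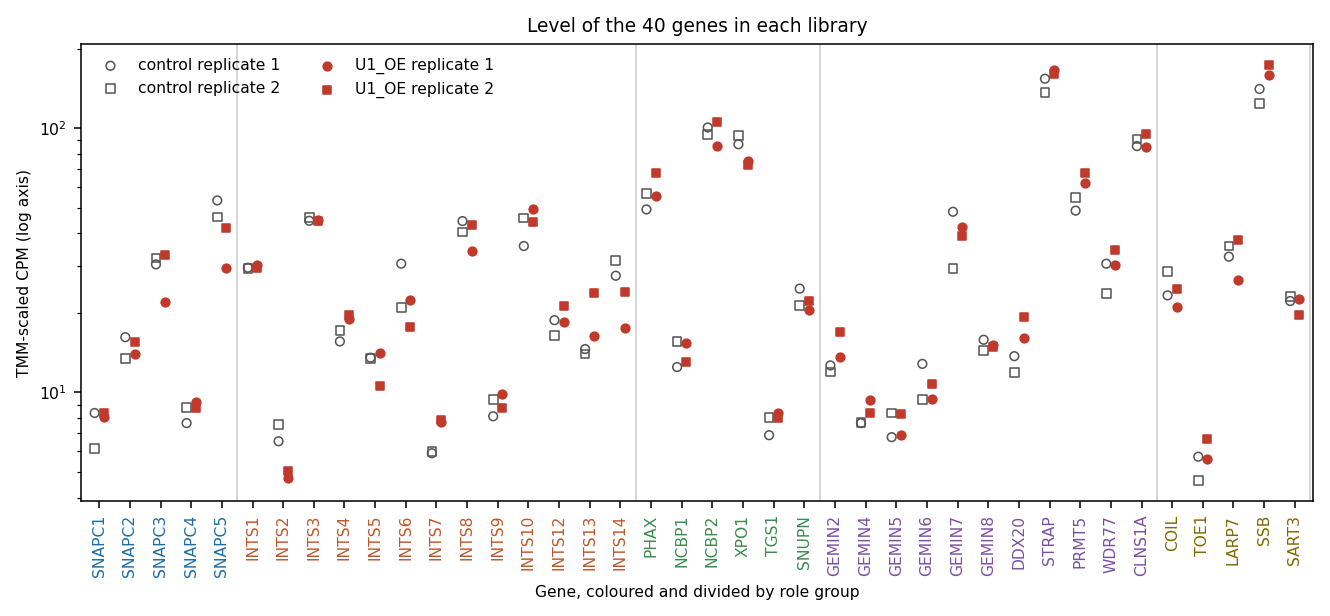
TMM-scaled CPM (log axis) of each gene in the 2 control (open) and 2 U1_OE libraries (filled), by role group. CPM also reflects gene length, so heights are for comparison within a gene; open and filled points overlap for 27 of the 40 genes.

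SNAPc is the activator that binds the proximal element of snRNA promoters. SNAPC1, SNAPC3 and SNAPC4 form its core, and SNAPC2 and SNAPC5 are accessory subunits. SNAPC5 (chromosome 15, 66490135 to 66497813, minus strand) had 53.3 and 46.1 CPM in control and 29.7 and 42.0 CPM with U1_OE. The U1_OE libraries were both lower, but replicate 2 lay close to control replicate 2. Its log2 fold change was -0.47 ± 0.21 (SE, as throughout for log2 fold changes; edgeR adjusted p = 0.586). Leaving out U1_OE replicate 2 gave -0.75, and leaving out U1_OE replicate 1 gave -0.23. MAP2K1, on the opposite strand, shares 8.61% of the exonic bases of SNAPC5 (all GENCODE v29 transcripts, as throughout for shared bases). MAP2K1 had 41.6 and 38.8 CPM in control and 57.0 and 44.8 CPM with U1_OE. No strand-marking step is stated for these libraries, so the reads of the stretch shared with MAP2K1 cannot be assigned. AC116913.1, on the same strand, shares 23.2% of the exonic bases of SNAPC5 and has no row under that name in the count table.

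SNAPC3, which contacts DNA within the core, had 30.6 and 32.3 CPM in control and 22.1 and 33.2 CPM with U1_OE. Here U1_OE replicate 1 alone was low, and U1_OE replicate 2 was the highest of the 4 libraries. The fitted log2 difference was -0.18 ± 0.23 (edgeR adjusted p = 0.849). It was 0.09 without U1_OE replicate 1 and -0.51 without U1_OE replicate 2. SNAPC1 had 8.36 and 6.14 CPM in control and 8.07 and 8.39 CPM with U1_OE, so control replicate 2 stood below the other libraries. In log2 terms the difference was 0.18 ± 0.24 (edgeR adjusted p = 0.859), with -0.02 without control replicate 2 and 0.44 without control replicate 1. SNAPC2 and SNAPC4, the largest subunit with the Myb-type DNA-binding repeats, had log2 fold changes of -0.01 and 0.12 with overlapping groups.

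Integrator holds an RNA endonuclease, a bound PP2A phosphatase and several structural modules. Of the 13 Integrator genes listed here 7 had a positive and 6 a negative log2 fold change. That compares with 49.3% positive over all genes, and their median was 0.02. The catalytic subunit INTS11 and INTS15 are not among the 13 and were taken with the further pathway genes. Their log2 fold changes were 0.10 and -0.275. INTS14 and INTS13 belong to the same module with INTS10, and their values lay on opposite sides. INTS14 (chromosome 15, 65578753 to 65611289, minus strand) had 27.7 and 31.6 CPM in control and 17.5 and 24.0 CPM with U1_OE. Both U1_OE libraries were lower, replicate 1 more so. It had the lowest adjusted p among the members, with a log2 fold change of -0.51 ± 0.21 (edgeR adjusted p = 0.561). Leaving out U1_OE replicate 2 gave -0.76, and leaving out U1_OE replicate 1 gave -0.29.

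INTS13 (chromosome 12, 26905181 to 26938326, minus strand) had 14.6 and 14.0 CPM in control and 16.4 and 23.9 CPM with U1_OE. U1_OE replicate 2 stood apart from the other libraries, and U1_OE replicate 1 lay close to the controls. On the log2 scale the difference was 0.50 ± 0.23 (edgeR adjusted p = 0.600), and it was 0.19 without U1_OE replicate 2 and 0.75 without U1_OE replicate 1. INTS10 had 35.9 and 45.7 CPM in control and 49.5 and 44.3 CPM with U1_OE, and the groups overlapped.

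INTS2, a subunit of the structural backbone, had 6.53 and 7.58 CPM in control and 4.74 and 5.03 CPM with U1_OE. The gap between groups was wider than that within either group, at a low level. The log2 fold change was -0.53 ± 0.23 (edgeR adjusted p = 0.577). INTS7, another backbone subunit, had 5.89 and 5.97 CPM in control and 7.76 and 7.86 CPM with U1_OE, with the replicates of each group close together. Its log2 fold change was 0.40 ± 0.21 (edgeR adjusted p = 0.640). The interval of INTS7, from a spread that edgeR shares between genes, ran from -0.14 to 0.93.

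In the cleavage module, INTS4 had 15.6 and 17.2 CPM in control and 19.0 and 19.7 CPM with U1_OE, and its partner INTS9 had 8.12 and 9.40 against 9.85 and 8.76 CPM. INTS4 thus lay above control in both libraries and INTS9 did not. The log2 fold changes were 0.24 and 0.09 (edgeR adjusted p = 0.696 and 0.933). INTS6, which bridges to the phosphatase, had 30.7 and 21.0 CPM in control and 22.4 and 17.8 CPM with U1_OE, where control replicate 1 was high. INTS1, INTS3, INTS5, INTS8 and INTS12 had log2 fold changes from -0.14 (INTS8) to 0.18 (INTS12). INTS1 and INTS3 had the narrowest intervals of the 13, with values of 29.4 to 30.3 CPM and 44.7 to 46.0 CPM over the 4 libraries and intervals of -0.31 to 0.35 and -0.33 to 0.30.

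The export and cap group carries the precursor out and the finished particle back in. XPO1, the exportin of leucine-rich nuclear export signals (chromosome 2, 61477849 to 61538626, minus strand), had 87.1 and 93.9 CPM in control and 75.4 and 72.9 CPM with U1_OE. Both U1_OE libraries were lower and the replicates of each group lay near each other. The fitted log2 difference was -0.29 ± 0.13 (edgeR adjusted p = 0.577), and its interval of -0.61 to 0.04 does not reach a 2-fold decrease. PHAX, the adaptor that joins capped snRNA to XPO1, had 49.3 and 56.8 CPM in control and 55.3 and 67.5 CPM with U1_OE, with overlapping groups. In log2 terms the difference was 0.21 ± 0.16 (edgeR adjusted p = 0.746), with 0.06 without U1_OE replicate 2, 0.13 without control replicate 1 and 0.36 without U1_OE replicate 1.

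SNUPN, the import receptor for the trimethylated cap, had 24.7 and 21.3 CPM in control and 20.6 and 22.2 CPM with U1_OE. The groups overlapped, and the log2 fold change was -0.11 ± 0.16 (edgeR adjusted p = 0.879). It was 0.03 without control replicate 1, -0.21 without control replicate 2, -0.04 without U1_OE replicate 1 and -0.16 without U1_OE replicate 2. The 2 subunits of the cap-binding complex, NCBP1 and NCBP2, had log2 fold changes of 0.01 and -0.03, and TGS1, which trimethylates the cap, 0.13. All 6 intervals of this group lay within a 2-fold change.

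The SMN/Gemin and methylosome group builds the Sm ring. The genes of SMN itself, SMN1 and SMN2, are not among its 11 members, and their values are not given here. Of the 11 members 9 were positive, beside 49.3% of all genes tested, and the median log2 fold change was 0.17. With unscaled library sizes 7 were positive, and 9 lay above the median of all genes under either scaling. Leaving out control replicate 2 gave a median of 0.08, and leaving out control replicate 1 gave 0.27. Both U1_OE libraries were above both controls for 5 members, beside 19.7% of all genes, and below for none, beside 22%. None of the 11 passed the test, and 0 of 11 had an unadjusted edgeR p under 0.05, beside 9.08% of all genes. No test over the group was made, so these counts describe the libraries only. DDX20, also called Gemin3, is a DEAD-box helicase of the SMN complex (chromosome 1, 111755245 to 111768016, plus strand). It had 13.7 and 11.9 CPM in control and 16.1 and 19.3 CPM with U1_OE. Its groups were apart by 2.35 CPM at the nearest, against 1.83 CPM between the control libraries and 3.27 CPM between the U1_OE libraries. On the log2 scale the difference was 0.47 ± 0.19 (edgeR adjusted p = 0.562).

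PRMT5, the arginine methyltransferase that dimethylates Sm proteins symmetrically (chromosome 14, 22920511 to 22929585, minus strand), had 48.8 and 54.8 CPM in control and 62.1 and 67.8 CPM with U1_OE. The replicates of each group differed by slightly less than the groups did at their nearest. The log2 fold change was 0.33 ± 0.14 (edgeR adjusted p = 0.571). PRMT5-AS1, on the opposite strand, shares 27.1% of the exonic bases of PRMT5 but stood at 0.387 to 2.90 CPM. WDR77, the obligate partner of PRMT5, had 30.7 and 23.7 CPM in control and 30.5 and 34.7 CPM with U1_OE, where only control replicate 2 was low. CLNS1A, which hands Sm proteins to the methylosome, had 85.7 and 91.2 CPM in control and 84.7 and 95.6 CPM with U1_OE, with a log2 fold change of 0.03.

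GEMIN2, which holds the Sm proteins before ring closure, had 12.7 and 11.9 CPM in control and 13.7 and 17.0 CPM with U1_OE. U1_OE replicate 2 was high and replicate 1 lay just above the controls. Its log2 fold change was 0.32 ± 0.19 (edgeR adjusted p = 0.682), and it was 0.15 without U1_OE replicate 2 and 0.48 without U1_OE replicate 1. STRAP had 154 and 137 CPM in control and 166 and 161 CPM with U1_OE, a log2 fold change of 0.17 that became 0.08 when control replicate 2 was left out and 0.28 when control replicate 1 was. GEMIN5, the subunit that recognises snRNA through its Sm site and cap, had 6.77 and 8.35 CPM in control and 6.90 and 8.28 CPM with U1_OE, and its log2 fold change was 0.01. GEMIN7 had 48.3 and 29.4 CPM in the control libraries, the widest gap between control replicates among the members, with both U1_OE libraries between them. GEMIN4, GEMIN6 and GEMIN8 had log2 fold changes of 0.21, -0.13 and -0.01.

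In the last group, SSB (the La protein, which binds the uridine-rich 3′ end of polymerase III transcripts such as U6; chromosome 2, 169791933 to 169812064, plus strand) had 141 and 124 CPM in control and 160 and 174 CPM with U1_OE. Both U1_OE libraries were above the controls, by 18.6 CPM at the nearest, against 16.9 CPM between the control libraries. The fitted log2 difference was 0.33 ± 0.14 (edgeR adjusted p = 0.571). METTL5, on the opposite strand, shares 11.2% of the exonic bases of SSB and had 35.4 to 44.6 CPM with overlapping groups. COIL, the scaffold protein of Cajal bodies, had 23.3 and 28.8 CPM in control and 21.0 and 24.6 CPM with U1_OE, which overlapped. In log2 terms the difference was -0.19 ± 0.18 (edgeR adjusted p = 0.788). It was -0.03 without control replicate 2 and -0.07 without U1_OE replicate 1, and -0.31 without either of the other libraries.

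TOE1, the exonuclease that trims snRNA tails, had 5.71 and 4.65 CPM in control and 5.60 and 6.66 CPM with U1_OE. The groups overlapped, and the log2 fold change was 0.25 ± 0.26 (edgeR adjusted p = 0.812). It was 0.10 without control replicate 2 and 0.11 without U1_OE replicate 2, against 0.42 without control replicate 1 and 0.37 without U1_OE replicate 1. LARP7, which binds 7SK and U6, had 32.7 and 35.8 CPM in control and 26.7 and 37.6 CPM with U1_OE, with the U1_OE libraries on either side of the controls. SART3, a recycling factor of U6 particles, had a log2 fold change of -0.10.

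**Figure D3:**
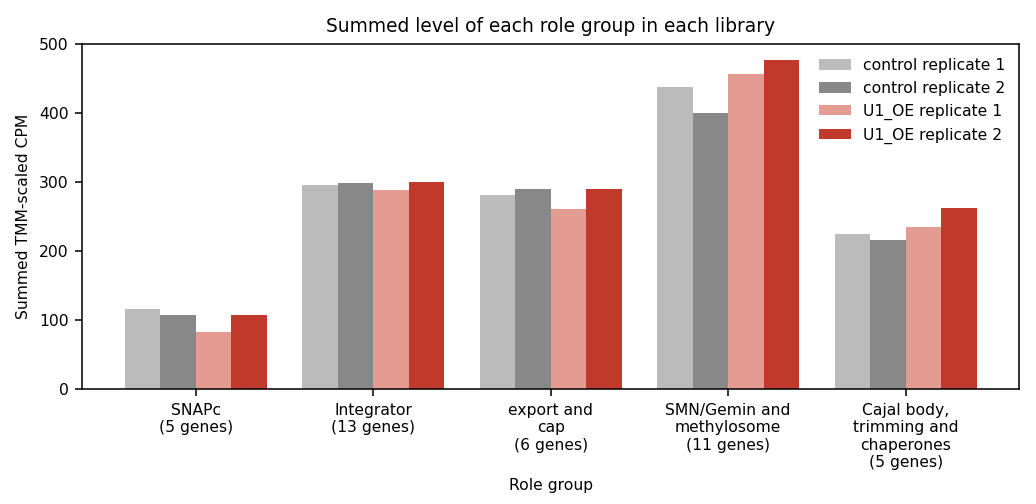
Summed TMM-scaled CPM of each role group in the 4 libraries. The sums of SMN/Gemin and methylosome genes and of the last group are higher in both U1_OE libraries than in both controls, the Integrator sums are nearly level, and SNAPc is low in U1_OE replicate 1. SSB makes most of the last group's sum.

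Summed over a role group, mean levels with U1_OE were between 14.4% lower (SNAPc) and 12.9% higher (the last group) than in control, and no test was made on these sums. The 13 Integrator genes, which do not include INTS11, summed to 296 and 298 CPM in control and 289 and 301 CPM with U1_OE. The SMN/Gemin and methylosome genes summed to 437 and 399 CPM in control and 456 and 476 CPM with U1_OE, 11.5% higher in the mean. STRAP made the largest part of that sum in each library. The last group summed to 225 and 216 CPM in control and 235 and 263 CPM with U1_OE, 12.9% higher in the mean, most of it SSB. In the mean that sum was 221 CPM in control and 249 CPM with U1_OE, and SSB alone 133 and 167 CPM. Its median log2 fold change was -0.09, with 2 genes positive and 3 negative. SNAPc summed to 116 and 107 CPM in control and 83.0 and 108 CPM with U1_OE. The median log2 fold change of SNAPc genes was -0.01, with 2 positive and 3 negative. SNAPC5 alone had a mean of 49.7 CPM in control and 35.9 CPM with U1_OE. Export and cap genes summed to 281 and 290 CPM in control against 261 and 289 CPM with U1_OE. The 40 genes together summed to 1333 ± 31.5 CPM in control and 1381 ± 79.4 CPM with U1_OE (each SD over n = 2 libraries), a difference smaller than the spread between the U1_OE libraries.

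Levels can be compared between genes only per length, here as CPM per kb of exon in the GENCODE v29 basic transcripts. On that scale the members spanned 102-fold, from 0.792 for INTS2 to 81.0 for STRAP. Such folds depend on the transcripts counted. Over all transcripts SSB has 5113 exonic bases against 1947 in the basic set, and TOE1 2742 against 2389. Subunits of one complex did not share a level. Within SNAPc, SNAPC5 was highest (30.7 and 26.6 in control, 17.1 and 24.2 CPM per kb with U1_OE). SNAPC4 was lowest (1.53 and 1.76 in control, 1.83 and 1.75 CPM per kb with U1_OE). Among the 13 Integrator members, INTS10 was highest (12.8 and 16.3 in control, 17.7 and 15.8 CPM per kb with U1_OE). INTS2 was lowest (0.867 and 1.01 in control, 0.629 and 0.668 CPM per kb with U1_OE). INTS11, not among the 13, stood above INTS10 (24.9 and 23.8 in control, 26.0 and 26.3 CPM per kb with U1_OE). The low place of INTS6, near that of INTS2, rests on an annotated exonic length of 22.9 kb, by far the longest of the 13.

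NCBP2 led the export and cap genes (35.3 and 33.1 in control, 30.0 and 37.0 CPM per kb with U1_OE), 16.4-fold above TGS1 (1.82 and 2.12 in control, 2.22 and 2.11 CPM per kb with U1_OE). STRAP led the SMN/Gemin and methylosome group (80.9 and 71.7 in control, 87.2 and 84.3 CPM per kb with U1_OE). GEMIN5 was at its lower end (1.25 and 1.55 in control, 1.28 and 1.54 CPM per kb with U1_OE). The methylosome genes PRMT5, WDR77 and CLNS1A all stood above the helicase DDX20 and the scaffold GEMIN4 in mean CPM per kb. SSB led the last group (72.4 and 63.7 in control, 82.0 and 89.5 CPM per kb with U1_OE), 32.5-fold above TOE1 (2.39 and 1.94 in control, 2.35 and 2.79 CPM per kb with U1_OE). Neighbours in these orders were not always apart: in control replicate 2, INTS6 lay below INTS2 and GEMIN4 below GEMIN5, and the ranges of INTS1, INTS4 and INTS5 overlapped.

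**Figure D4:**
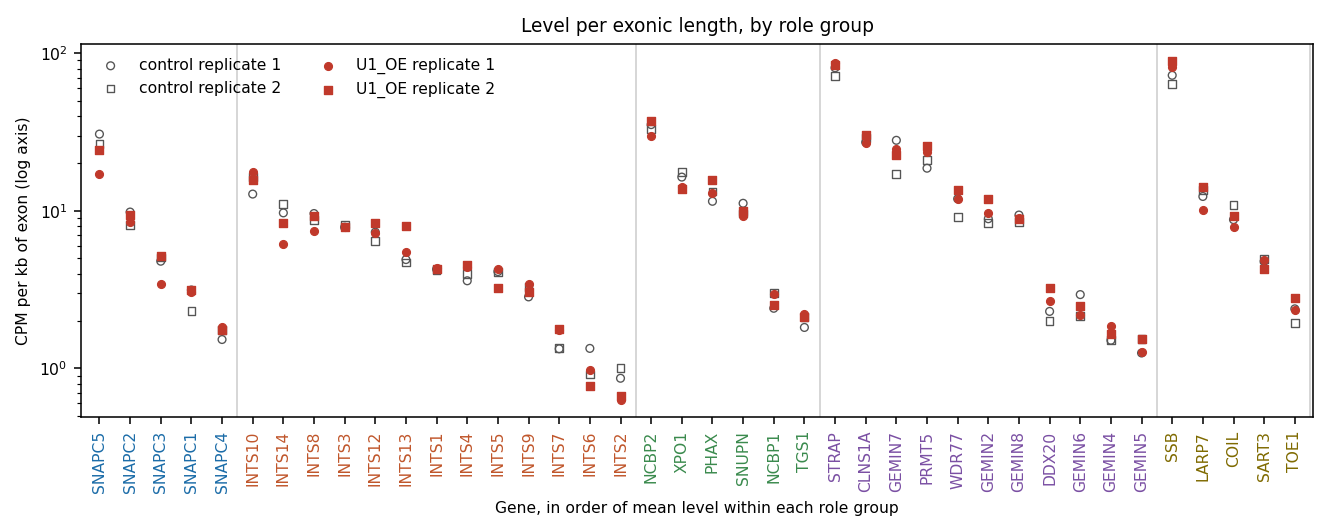
CPM per kb of exon (log axis) of each gene in the 4 libraries, ordered by mean level within its role group. Each group falls from a leading gene such as SNAPC5, INTS10, NCBP2, STRAP or SSB to a lowest one 14.4-fold to 57.7-fold below.

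Other genes of the pathway were also without a call. A list of 63 further genes covered transcription factors of snRNA genes, partners of Integrator, cap and transport factors, Sm proteins with their modifying enzymes, and factors that modify or trim snRNA or act on 7SK and U6. By edgeR 0 of the 63 passed in either direction, and 2 (3.17%) had an unadjusted p under 0.05, beside 9.08% of all genes. DESeq2 and limma-voom called 0, beside 0.972% and 0% of all genes. The log2 fold change was positive for 41 (65.1%, beside 49.3% of all genes) and negative for 22. Its median was 0.07 beside -0.01 for all genes tested, and 0.14 without control replicate 1. With unscaled library sizes 35 were positive, and 41 lay above the median of all genes under either scaling. Both U1_OE libraries were above both controls for 18, beside 19.7% of all genes, and below for 11, beside 22%.

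PRMT1, the main enzyme of asymmetric arginine dimethylation, had the smallest p of the list. It had 106 and 102 CPM in control and 147 and 144 CPM with U1_OE, with groups far apart relative to their replicates. On the log2 scale the difference was 0.48 ± 0.12 (edgeR adjusted p = 0.459, DESeq2 adjusted p = 0.172). LSM4, of the LSm ring on the 3′ end of U6, had 117 and 102 CPM in control and 77.4 and 87.7 CPM with U1_OE, a log2 fold change of -0.40 ± 0.15 (edgeR adjusted p = 0.534). NABP1, a single-stranded DNA-binding protein that associates with INTS3, had 153 and 124 CPM in control and 64.6 and 110 CPM with U1_OE. U1_OE replicate 1 was much the lowest, and the log2 fold change of -0.67 ± 0.29 (edgeR adjusted p = 0.571) became -0.33 without it and -1.10 without U1_OE replicate 2. The catalytic Integrator subunit INTS11 had 85.5 and 81.8 CPM in control and 89.4 and 90.4 CPM with U1_OE, a log2 fold change of 0.10. The Sm protein genes among these 63 had log2 fold changes from -0.11 (SNRPD1) to 0.22 (SNRPB).

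The members lie on 16 chromosomes. In GENCODE v29, 23 of the 40 share exonic bases with another annotated gene, 21 of them with one on the opposite strand, and 6 share at least 20% of their exonic bases with a single gene (INTS8, PRMT5, SNAPC1, SNAPC5, TOE1 and WDR77). Their counts depend on how the authors' counting divided such reads. Promoter windows of 250 bases before to 50 after the start (RefSeq, GRCh38.p14) were at hand for 32 members and 15843 coding genes. The median GC content was 62.7% in both sets. Searched on both strands, CCAAT occurred in 15 of the 32 windows (46.9%, beside 36.4% of all) and CCGGAAG, the core letters of ETS sites, in 8 (25%, beside 14.2%). TATAAA occurred in 1 window, that of SSB (3.13%, beside 9.63%), and ACTACAA, core letters of the site of the snRNA activator ZNF143, in 2, those of GEMIN6 and SNAPC3 (6.25%, beside 3.14%). These are matches of letters and not sites of binding.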

How the data were processed

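The authors deposited a table of estimated counts per gene, not normalised and mostly not whole numbers (1.99% of values above 0 lie within 0.01 of one). The origin of the fractions was not given in the sources used here. Per the submitters' processing notes, Trim Galore, STAR, featureCounts and DESeq2 were used with hg38, without versions or roles.

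Values were rounded and tested with edgeR 4.0.16 (R 4.3.3): filterByExpr kept 17317 of 25283 rows, TMM scaled the libraries, and the quasi-likelihood test was adjusted by Benjamini-Hochberg over all genes kept. All 40 members and all 63 pathway genes were kept. Standard errors and 95% intervals were worked back from the F statistic. With 2 libraries against 2, an exact permutation test cannot go below p = 0.333 and was not used. DESeq2 1.42.0 and limma-voom (limma 3.58.1) were alternatives. The fits were also run on counts simulated from edgeR's own dispersion estimates. Such counts cannot show whether the intervals hold for these libraries. Positions and lengths come from GENCODE v29 (GRCh38), which gave a length for 82.3% of rows. Lengths used its basic transcripts, and shares of exonic bases used all its transcripts.

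Members and lists were chosen with earlier results of these data known. Values in every library are given for the 3 members with the smallest p in each role group, for the highest and lowest per length, and for the 3 pathway genes with the smallest p; values of the remaining members were given after they were seen. Each member had 77.1 or more counts in every library.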

Additional observations from a re-analysis of the deposited data

How the results depend on the processing

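Under each of 11 alternatives, 0 of the 40 members and 0 of the 63 pathway genes were called: DESeq2, limma-voom, RLE scaling, unscaled library sizes, all rows kept, only rows averaging 50 counts or more, a replicate block, and 4 fits that each dropped a library. Over the whole table DESeq2 called 179 genes against 0 by edgeR. The lowest adjusted p of a member in any setting was 0.268, for SNAPC5 without U1_OE replicate 2. The median log2 fold change of the members was 0.02 and ran from -0.01 with unscaled library sizes to 0.04 with DESeq2, and from 0.04 to 0.11 with a library left out. Between 19 and 27 members were positive, with 19 under unscaled library sizes, where the median of all genes was -0.04, and between 20 and 30 lay above the median of all genes. Over all 40 members 32 of 440 values changed sign, 20 with a library left out and 12 under the other alternatives, in 16 genes. Among 198 values for the 18 genes chosen by smallest p 3 changed sign, all without a library: SNUPN, 0.0279 without control replicate 1 (-0.21 to 0.03 over the 4 such fits), SNAPC1, -0.0232 without control replicate 2 (-0.02 to 0.44), and SNAPC3, 0.0913 without U1_OE replicate 1 (-0.51 to 0.09). With the replicate block, 0 members and 0 genes of the whole table were called and the members' median was 0.02. The numbers are not said to pair libraries, and the deviations of same-numbered libraries correlated at -0.0823 over all genes tested. The 4 fits that each dropped a library take the spread of a group with a single library from the other group.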
